A study of Mus musculus with 24 samples.

Results

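Cxcr4, Ccr1, Ccr2, Ccrl2 and Cx3cr1 encode 5 chemokine receptors found on macrophages. They were taken by name, 5 of the 25160 genes in the deposited count table, and each gene was read from its transcript with the highest mean count. The libraries came from RAW, an established mouse macrophage line, in a pair of stable derivatives. The Nur77 line carried a doxycycline-inducible construct for Nur77, the nuclear receptor encoded by Nr4a1, and the GFP line carried an inducible construct for green fluorescent protein as the control. Cells of both lines, in every group, were given doxycycline at 50 ng/ml for 18 h. Lipopolysaccharide (LPS, the bacterial ligand of Toll-like receptor 4) was then given at 500 ng/ml for 1 or 5 h, or not at all (0 h). The 6 groups held 4 libraries each, 24 in all. Each construct was present in 1 stable line, so an effect of the construct and a difference between cell isolates cannot be told apart, and no group without doxycycline was used here. The study asks how Nur77 shapes the macrophage response to LPS.

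Chemokine receptors are membrane-spanning receptors that couple to inhibitory G proteins and steer cells along gradients of small secreted chemokines. Monocytes leave the marrow and enter inflamed tissue through Ccr2, the receptor of Ccl2, while Ccr1 binds several inflammatory chemokines and Cxcr4 binds Cxcl12, which holds haematopoietic cells in the marrow. Cx3cr1 binds the membrane-tethered chemokine Cx3cl1 and marks patrolling monocytes and many tissue-resident macrophages. Ccrl2 is an atypical receptor that binds the chemoattractant chemerin (gene Rarres2) and presents it without signalling through G proteins.

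Total counts were 8134143 to 29275847 per library. Libraries of a group correlated at 0.988 or higher (log2 CPM), apart from the 1 h group of the Nur77 line, with a minimum of 0.976, or 0.989 once replicate 2 is left out. That library also lay outside the range of its 3 partners for all 5 receptors. Calls of the 5 receptors that change without it are given both ways. For other genes only some of the calls that change are given. Before LPS the Nr4a1 level of the GFP line was 3.03 ± 0.390 CPM and that of the Nur77 line 3.27 ± 0.403 CPM (SD, n = 4), with no difference detected (log2 fold change 0.10, 95% confidence interval -0.730 to 0.934). At 1 h Nr4a1 was lower in the Nur77 line, with 32.9 ± 15.8 against 61.7 ± 6.64 CPM (-0.91, adjusted p = 0.00488). That value was -0.60 (adjusted p = 2.02e-06) without replicate 2, and the call was lost when only the 1 h libraries were fitted (adjusted p = 0.083). At 5 h the value was 0.74 and was not called (adjusted p = 0.108), but was called without replicate 2 (0.74, adjusted p = 3.3e-05), with the DESeq2 test (0.78, adjusted p = 0.0351) and when only the 5 h libraries were fitted (0.74, adjusted p = 0.000364). The Nr4a1 change from 1 to 5 h differed between the lines by 1.65 (adjusted p = 0.029), and by 1.34 (adjusted p = 7.59e-07) without replicate 2. For 0 to 1 h the difference was -1.01 (adjusted p = 0.236), and -0.71 (adjusted p = 0.0215) without replicate 2. For 0 to 5 h it was 0.64 both ways (adjusted p = 0.544, and 0.0268 without replicate 2). The construct's sequence is not given in the sources used here, so these values do not check the labels. Of the markers of other cell types, the 4 of epithelium were at 0 in every library, and those of lymphocytes, fibroblasts and neutrophils summed to at most 0.379, 0.723 and 4.58 CPM. Of the 10 macrophage markers, Mertk had at most 7 counts summed per group and the other 9 passed the filter on low counts. Their summed level was 8773 to 10262 CPM in the GFP line and 5446 to 7310 CPM in the Nur77 line, and single markers lay on both sides. Before LPS the means in the GFP and the Nur77 line were 5646 and 2781 CPM for Lyz2 and 1186 and 753 CPM for Cd68, but 450 and 547 CPM for Csf1r and 314 and 350 CPM for Ptprc. Their part in the differences between the lines was not tested, and fewer cells of a type cannot be told apart from less RNA per cell.

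Of the 5 genes, 4 lie on mouse chromosome 9 (GRCm38), together with most of the other receptor genes looked at: 15 of the 25 were on that chromosome. Ccr1 (NM_009912, chr9:123962126-123968692, minus strand) and Ccr2 (NM_009915, chr9:124101918-124109140, plus strand) are 133.2 kb apart. Cx3cr1 (NM_009987, chr9:120048683-120068296, minus strand) lies 3.89 Mb before Ccr1, and Ccrl2 (NM_017466, chr9:111054834-111057518, minus strand) another 8.99 Mb before Cx3cr1. Cxcr4 (NM_009911, chr1:128588199-128592299, minus strand) is on chromosome 1. Its coding sequence spans 2 exons, while that of each of the other 4 lies within 1 exon. No other gene of the GENCODE annotation overlapped any of the 5. Ccr1, Ccr1l1 and Ccr3 are close paralogs, so reads shared between them could have been split in the counting. Ccr1l1 and Ccr3 had 0 to 4 counts summed over the 4 libraries of a group.

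Of the 5 genes, Ccrl2 and Cxcr4 moved furthest after LPS and Ccr1 differed most between the lines. For this reason the 250 bases before an annotated start of Ccrl2, Ccr1 and Cxcr4 are shown. They are from RefSeq (GRCm38.p6), 5′ to 3′ on the gene's strand, with capitals marking a match to the kB consensus, the sequence bound by NF-kB factors.
Ccrl2, chr9:111057519-111057768: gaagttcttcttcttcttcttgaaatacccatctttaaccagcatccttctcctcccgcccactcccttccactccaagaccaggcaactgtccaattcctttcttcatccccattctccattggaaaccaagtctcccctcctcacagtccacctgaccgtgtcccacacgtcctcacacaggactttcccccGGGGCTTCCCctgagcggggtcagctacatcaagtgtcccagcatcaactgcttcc
Ccr1, chr9:123968693-123968942: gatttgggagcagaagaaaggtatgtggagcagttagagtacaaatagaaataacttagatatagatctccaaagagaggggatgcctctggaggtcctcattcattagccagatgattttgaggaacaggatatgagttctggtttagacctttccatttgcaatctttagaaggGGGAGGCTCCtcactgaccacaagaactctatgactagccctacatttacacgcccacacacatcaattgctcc
Cxcr4, chr1:128592300-128592549: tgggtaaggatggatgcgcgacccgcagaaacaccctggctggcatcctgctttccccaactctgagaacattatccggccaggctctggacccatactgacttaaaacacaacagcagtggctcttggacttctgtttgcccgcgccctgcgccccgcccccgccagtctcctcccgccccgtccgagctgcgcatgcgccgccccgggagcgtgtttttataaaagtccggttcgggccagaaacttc
The Ccrl2 match, GGGGCTTCCC, lay 56 to 47 bases before the start, and the Ccr1 match, GGGAGGCTCC, 74 to 65 bases before it. RefSeq also gives other starts for Ccrl2, and their windows, chr9:111057271-111057520 and chr9:111057245-111057494, held no match. Counted per promoter, a kB match on either strand was present in 7.25% of 32851 RefSeq promoters over the same length. The Ccr2 window, chr9:124101933-124102182, precedes a RefSeq start that lies inside the gene span printed for Ccr2. None of the windows of the 5 genes held AAAGGTCA, the element bound by Nur77 monomers (present in 1.34% of promoters), TGANTCA of AP-1 (6.75%) or GAGGAAGT of PU.1 (2.44%). The Cxcr4 window had 19 CpG dinucleotides and a GC content of 61.2%, against medians of 6 and 52.4% over all promoters, while the Ccr1 window had 1 CpG and 43.6% GC. These matches are descriptions of sequence and were not tied to the counts by any test.

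Between the lines, Cxcr4, Ccr1 and Ccrl2 were lower and Ccr2 was higher in the Nur77 line at 0, 1 and 5 h, and Cx3cr1 was higher at 0 and 1 h. Differences were tested with edgeR's quasi-likelihood test on all 24 libraries, with Benjamini-Hochberg adjustment over 12198 genes and a call at an adjusted p under 0.05. All 5 receptors were called at 0 h, where 39.9% of all genes tested were called. All 5 were also called at 1 h (51.2% of all genes) and 4 of 5 at 5 h (46.4%). Without Nur77 line 1 h replicate 2 all 5 were called at each time, against 44.4%, 50.8% and 51.4% of genes. Being called in the same direction at all 3 times held for 4 of the 5 and for 23.9% of genes.

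**Figure D1:**
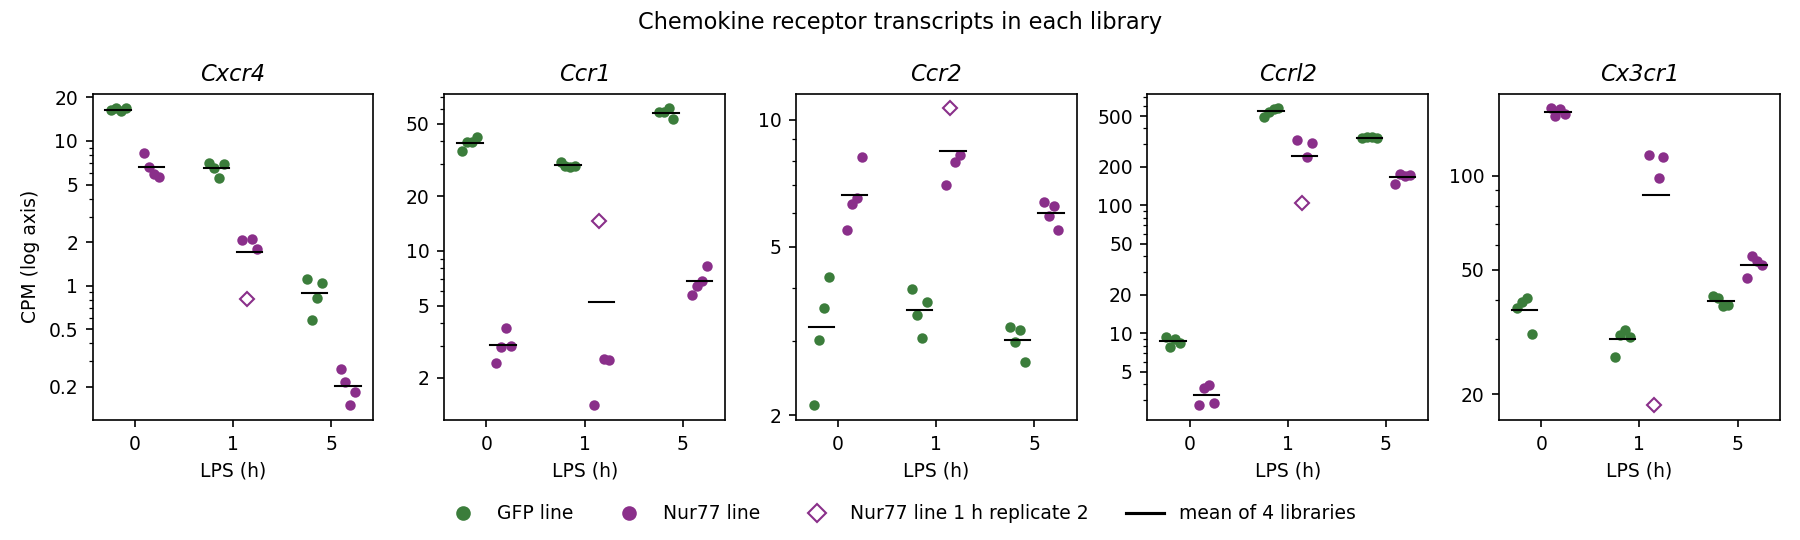
Level of each receptor in each library, in CPM on a log axis that differs between panels, at 0, 1 and 5 h of LPS. Points are libraries (green, GFP line; purple, Nur77 line; open diamond, Nur77 line 1 h replicate 2) and black bars are the means of 4 libraries. The GFP libraries lie above the Nur77 libraries at each time for Cxcr4, Ccr1 and Ccrl2 and below them for Ccr2; the open diamond lies outside its group in all 5 panels.

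Cxcr4 fell with LPS in both lines and was lower in the Nur77 line throughout. In the GFP line the 4 libraries had 16.3, 16.8, 16.0 and 16.8 CPM before LPS, 7.09, 6.46, 5.57 and 6.95 CPM at 1 h, and 1.12, 0.579, 0.819 and 1.04 CPM at 5 h. Those of the Nur77 line had 8.22, 6.60, 5.95 and 5.64 CPM before LPS, 2.08, 0.808, 2.09 and 1.79 CPM at 1 h, and 0.263, 0.216, 0.149 and 0.182 CPM at 5 h. No library of the Nur77 line reached the range of the GFP line at the same time. The level before LPS in the Nur77 line, 6.60 ± 1.15 CPM, overlapped that of the GFP line after 1 h, 6.52 ± 0.686 CPM.

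The log2 fold change of Cxcr4 between the lines was -1.33 ± 0.150 before LPS (SE, adjusted p = 8.44e-08), -1.89 ± 0.186 at 1 h (adjusted p = 7.27e-09) and -1.97 ± 0.377 at 5 h (adjusted p = 0.000121). Without Nur77 line 1 h replicate 2 the value at 1 h was -1.68 (adjusted p = 1.04e-09). At 5 h the Nur77 libraries held 2 to 7 Cxcr4 counts each and the GFP libraries 13 to 20, so the last value rests on few reads. In log2 units, Cxcr4 fell after LPS by 1.34 at 1 h and by 4.24 at 5 h in the GFP line, and by 1.90 and 4.89 in the Nur77 line, an 18.9-fold and a 29.6-fold lower level at 5 h. The fall in the Nur77 line did not differ detectably from that in the GFP line at 5 h (difference -0.64, 95% confidence interval -1.51 to 0.228, adjusted p = 0.403). At 1 h the difference was -0.56 (interval -1.07 to -0.0599, adjusted p = 0.195).

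Ccr1, a receptor of Ccl3, Ccl5 and related inflammatory chemokines, differed most between the lines among the 5. The GFP libraries had 35.4, 39.7, 39.9 and 42.2 CPM before LPS, 31.0, 29.2, 28.8 and 29.1 CPM at 1 h, and 57.7, 57.8, 60.8 and 53.0 CPM at 5 h. The Nur77 libraries had 2.42, 2.96, 3.75 and 2.98 CPM before LPS, 1.42, 14.5, 2.53 and 2.51 CPM at 1 h, and 5.72, 6.41, 6.83 and 8.20 CPM at 5 h. Every GFP library was above every Nur77 library of any time, and the lone high value of the Nur77 line, 14.5 CPM, belonged to replicate 2 at 1 h.

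The log2 fold change of Ccr1 between the lines was -3.68 ± 0.420 before LPS (SE, adjusted p = 5.69e-07), a 12.8-fold lower level. At 1 h it was -2.58 ± 0.393 (adjusted p = 1.94e-05) with replicate 2 and -3.82 ± 0.143 (adjusted p = 6.01e-18) without it. At 5 h it was -3.10 ± 0.376 (adjusted p = 9.95e-07). The mean in the Nur77 line at 1 h was 5.25 ± 6.22 CPM with all 4 libraries and 2.15 ± 0.638 CPM with 3, against 29.5 ± 0.986 CPM in the GFP line.

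Which changes of Ccr1 after LPS were called depended on that library, and in the Nur77 line the estimates that use 1 h did too. GFP libraries of the 3 times did not overlap, and the level at 5 h was higher than at 1 h (log2 fold change 0.96, adjusted p = 0.0175). The change from 0 to 1 h, -0.42, and that from 0 to 5 h, 0.54, were not called with all 24 libraries (adjusted p = 0.48 and 0.145). With nearly the same values, both were called without Nur77 line 1 h replicate 2 (adjusted p = 0.00111 and 4.97e-06). Both were also called when only the GFP groups compared were fitted (-0.41 and 0.55, adjusted p = 0.00117 and 5.17e-06). For the Nur77 line the change from 0 to 1 h was 0.69 with all libraries (adjusted p = 0.273), -0.56 without replicate 2 (adjusted p = 0.019) and 1.07 without replicate 1 (adjusted p = 0.046). From 0 to 5 h Ccr1 rose by 1.12 in the Nur77 line (adjusted p = 0.0462), where the libraries did not overlap. This call was lost in 16 of the 24 fits that leave out 1 library, with values of 1.03 to 1.24, and with no filter on low counts (1.13, adjusted p = 0.0726), and stood at 1.11 (adjusted p = 1.52e-07) without Nur77 line 1 h replicate 2. From 1 to 5 h the change was 0.43 (adjusted p = 0.421), and 1.67 (adjusted p = 1.15e-09) without that library.

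**Figure D2:**
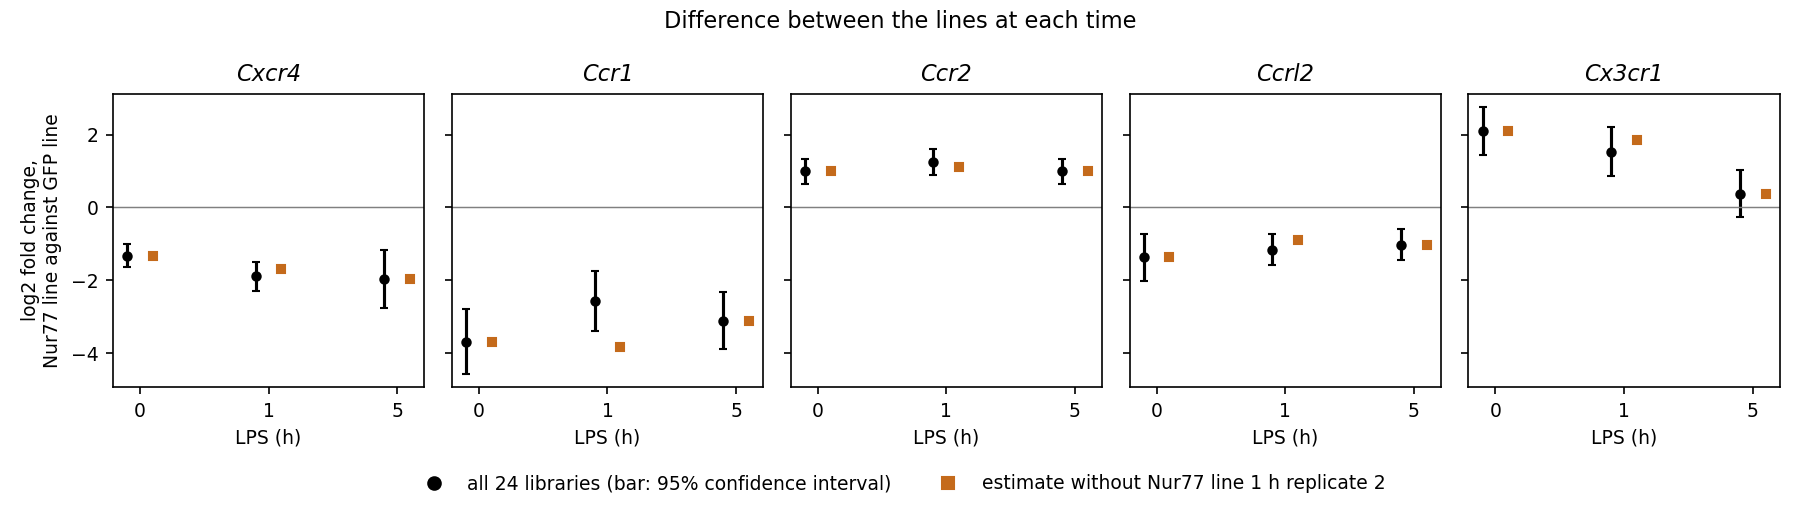
Log2 fold change of the Nur77 line against the GFP line at 0, 1 and 5 h of LPS for each receptor. Black points are the fit of all 24 libraries with 95% confidence intervals, and orange squares are estimates without Nur77 line 1 h replicate 2. Ccr1 at 1 h moves from -2.58 to -3.82 without that library, and the interval of Cx3cr1 at 5 h spans 0.

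Ccr2, the receptor of Ccl2, was higher in the Nur77 line at each time, and with all 24 libraries its only called change with LPS was a fall from 1 to 5 h in that line. The GFP libraries had 2.11, 3.01, 3.58 and 4.24 CPM before LPS, 3.98, 3.46, 3.05 and 3.70 CPM at 1 h, and 3.24, 2.98, 3.18 and 2.67 CPM at 5 h. The Nur77 libraries had 5.48, 6.33, 6.54 and 8.17 CPM before LPS, 6.99, 10.6, 7.93 and 8.25 CPM at 1 h, and 6.40, 5.91, 6.24 and 5.47 CPM at 5 h. Every Nur77 library was above every GFP library, and the highest value again belonged to replicate 2 at 1 h. Counts per library were 25 to 94 in the GFP line and 60 to 182 in the Nur77 line.

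The log2 fold change of Ccr2 between the lines was 0.99 ± 0.164 before LPS (SE, adjusted p = 2.49e-05), 1.25 ± 0.164 at 1 h (adjusted p = 8.33e-07) and 0.99 ± 0.166 at 5 h (adjusted p = 2.34e-05). The value at 1 h was 1.12 (adjusted p = 1.56e-06) without replicate 2. No change of Ccr2 with LPS was detected in the GFP line, with confidence intervals of -0.293 to 0.453 at 1 h and -0.502 to 0.229 at 5 h against 0 h. From 1 to 5 h the level in the Nur77 line fell by 0.47 (adjusted p = 0.0101), and by 0.34 without replicate 2 (adjusted p = 0.0467). The Nur77 change from 0 to 1 h, 0.33, did not pass (adjusted p = 0.0737). It passed without GFP line 0 h replicate 1 (adjusted p = 0.0491), Nur77 line 0 h replicate 4 (adjusted p = 0.0249) or Nur77 line 1 h replicate 1 (adjusted p = 0.0238).

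Cx3cr1, the receptor of the tethered chemokine Cx3cl1, was the receptor with the largest excess in the Nur77 line before LPS among the 5, and this excess was smaller at 5 h. The GFP libraries had 37.8, 39.3, 40.7 and 31.2 CPM before LPS, 26.4, 30.9, 32.0 and 30.5 CPM at 1 h, and 41.3, 40.7, 38.3 and 38.6 CPM at 5 h. The Nur77 libraries had 164, 155, 164 and 157 CPM before LPS, 116, 18.4, 98.3 and 115 CPM at 1 h, and 47.2, 55.2, 53.3 and 51.8 CPM at 5 h. At 0 and 5 h every Nur77 library was above every GFP library. At 1 h the same held for 3 Nur77 libraries, and replicate 2 lay below all 4 GFP libraries.

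The log2 fold change of Cx3cr1 between the lines was 2.10 ± 0.314 before LPS (SE, adjusted p = 1.98e-05), a 4.29-fold higher level in the Nur77 line. At 1 h it was 1.53 ± 0.319 (adjusted p = 0.000501) and, without replicate 2, 1.86 (adjusted p = 9.84e-17). At 5 h it was 0.38 ± 0.311 and was not called with all 24 libraries (adjusted p = 0.335). It was called without Nur77 line 1 h replicate 2 (0.38, adjusted p = 0.000105), and also when only the 5 h libraries were fitted (0.37, adjusted p = 2.03e-05). Neither of these fits used the 18.4 CPM of that library, and the reason for the difference in calls was not tested.

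In the Nur77 line Cx3cr1 fell by 0.88 at 1 h (adjusted p = 0.0231) and by 1.63 at 5 h (adjusted p = 0.000111) on the log2 scale. Without replicate 2 the value at 1 h was -0.54 (adjusted p = 1.86e-06), and when only the 0 and 1 h libraries of this line were fitted, replicate 2 included, the call was lost (adjusted p = 0.136). The further fall from 1 to 5 h, -0.75 (adjusted p = 0.0442), was lost in 18 of the 24 fits that leave out 1 library, with values of -0.59 to -0.78 there. It was also lost with no filter (adjusted p = 0.0743), with a replicate block (adjusted p = 0.0783) and when only the 1 and 5 h libraries of this line were fitted (adjusted p = 0.219), and stood at -1.08 (adjusted p = 1.8e-12) without replicate 2. In the GFP line the changes against 0 h were -0.31 at 1 h (adjusted p = 0.622, or 0.00441 without Nur77 line 1 h replicate 2) and 0.09 at 5 h (adjusted p = 0.81). The change at 1 h was also called when only its 2 groups were fitted (adjusted p = 0.0351). From 1 to 5 h the GFP change was 0.40 (adjusted p = 0.303), and all 5 h libraries were above those of 1 h. It was called without Nur77 line 1 h replicate 2 (adjusted p = 6.8e-05) and with only those groups fitted (0.38, adjusted p = 7.32e-05). The change from 0 to 5 h differed between the lines by -1.72 (95% confidence interval -2.64 to -0.800, adjusted p = 0.0182), and by the same amount without replicate 2 (adjusted p = 2.11e-12).

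Ccrl2, the atypical receptor of chemerin, rose most after LPS among the 5, in both lines. The GFP libraries had 9.29, 7.87, 9.09 and 8.35 CPM before LPS, 493, 541, 569 and 575 CPM at 1 h, and 337, 342, 341 and 334 CPM at 5 h. The Nur77 libraries had 2.74, 3.71, 3.93 and 2.85 CPM before LPS, 328, 104, 237 and 307 CPM at 1 h, and 148, 176, 169 and 173 CPM at 5 h. At each time every Nur77 library was below every GFP library, and replicate 2 at 1 h was the lowest of its group.

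Ccrl2 rose by 5.98 ± 0.261 at 1 h in the GFP line (log2 fold change with SE, adjusted p = 6.8e-14), a 62.9-fold higher level, and by 5.29 ± 0.255 at 5 h (adjusted p = 1.09e-13). In the Nur77 line the rises were 6.19 ± 0.284 (adjusted p = 1.66e-13), or 6.44 without replicate 2, and 5.64 ± 0.281 (adjusted p = 1.93e-13). From 1 to 5 h the level fell by 0.68 in the GFP line (adjusted p = 0.00669) and by 0.55 in the Nur77 line (adjusted p = 0.026). The latter call was lost without Nur77 line 1 h replicate 1 (-0.39, adjusted p = 0.115), 1 h replicate 4 (-0.43, adjusted p = 0.0903) or 5 h replicate 1 (-0.49, adjusted p = 0.0769), and without 1 h replicate 2 the change was -0.80 (adjusted p = 4.54e-09). It was also lost with no filter on low counts (adjusted p = 0.0502) and when only the 1 and 5 h libraries of this line were fitted (adjusted p = 0.164). Between the lines the log2 fold change was -1.37 ± 0.310 before LPS (adjusted p = 0.00127), -1.16 ± 0.203 at 1 h (adjusted p = 8.2e-05; -0.91 without replicate 2) and -1.02 ± 0.204 at 5 h (adjusted p = 0.000315). The rise of Ccrl2 did not differ detectably between the lines, with a difference of 0.22 at 1 h (95% confidence interval -0.566 to 0.997) and 0.35 at 5 h (-0.436 to 1.13).

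**Figure D3:**
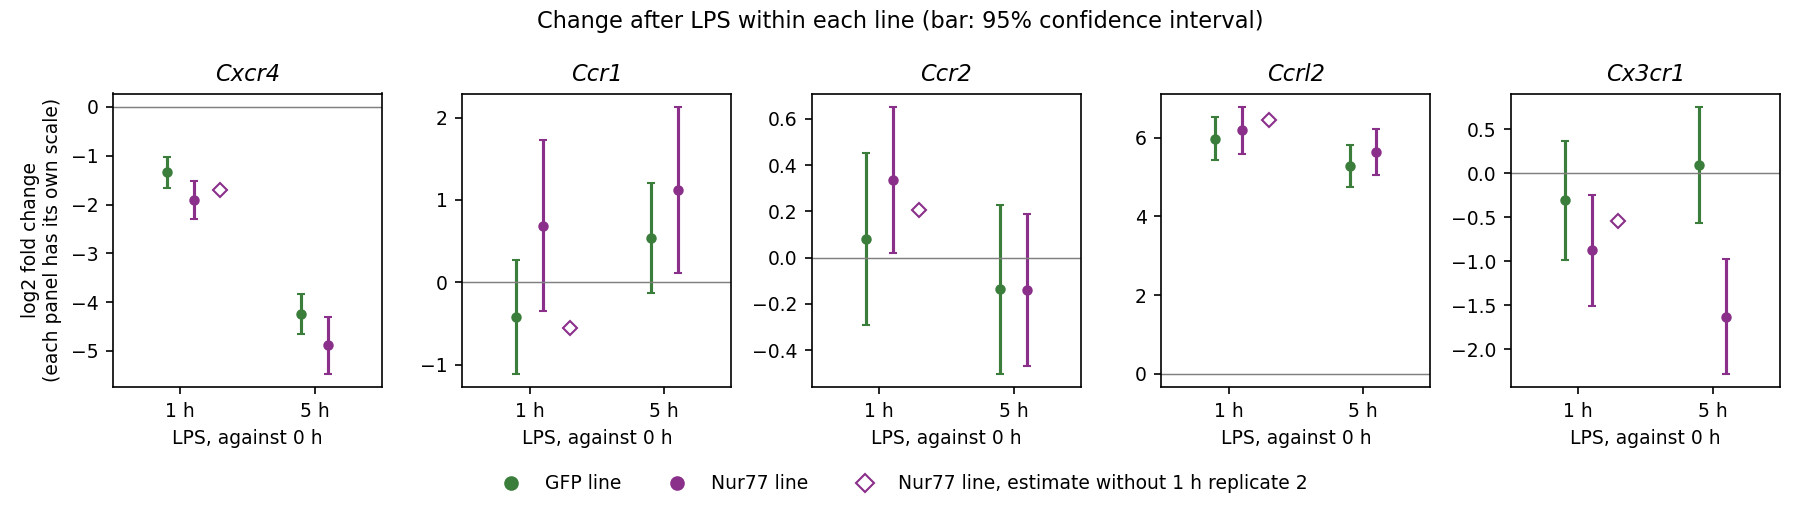
Log2 fold change at 1 and 5 h of LPS against 0 h in the GFP line (green) and the Nur77 line (purple), with 95% confidence intervals from all 24 libraries; each panel has its own scale. Open diamonds are the Nur77 line at 1 h without replicate 2. Cxcr4 is below 0 and Ccrl2 above 0 throughout, and for Cx3cr1 at 5 h the GFP interval spans 0 while the Nur77 value is -1.63.

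Of the 5 receptors, 2 were called at 1 h of LPS in the GFP line (17.4% of all genes tested) and 2 at 5 h (62.6%), in each case Ccrl2 higher and Cxcr4 lower. From 1 to 5 h in that line 3 were called (55.2%). In the Nur77 line 3 were called at 1 h (44.4%), 4 at 5 h (66.7%) and 4 from 1 to 5 h (55.4%). Without Nur77 line 1 h replicate 2 these counts were 4, 3 and 4 in the GFP line (21.5%, 65.2% and 58.4% of genes) and 4, 4 and 5 in the Nur77 line (38.2%, 68.7% and 58.7%). By edgeR's interaction test, the LPS change differed between the lines for none of the 5 at 1 h (1.13% of genes), for 1 at 5 h (7.88%) and for none from 1 to 5 h (6.55%). At an unadjusted p under 0.05 the counts were 1, 1 and 1, and with the DESeq2 test, which gave no adjusted p for Ccr1, 0, 1 and 0 of the other 4 were called. Without that library edgeR's counts were 0, 2 and 2 of 5, against 1.82%, 13.7% and 10.2% of genes. The additional calls were Ccr1 at 5 h (0.57, adjusted p = 0.0245), Ccr1 from 1 to 5 h (0.71, adjusted p = 0.0142, against -0.53 with all libraries) and Cx3cr1 from 1 to 5 h (-1.48, adjusted p = 3.38e-10).

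The receptor with the highest mean level per kb was not the same in every group. Per kb of transcript, Ccr1 led in the GFP line before LPS at 13.9 ± 1.00 CPM per kb, followed by Cx3cr1 at 9.93 ± 1.12 and Cxcr4 at 9.14 ± 0.215 CPM per kb. Cx3cr1 led in the Nur77 line before LPS at 42.6 ± 1.25 CPM per kb, with Cxcr4 next at 3.66 ± 0.637 CPM per kb. After LPS Ccrl2 was the highest in both lines, at 221 ± 15.2 CPM per kb in the GFP line and 99.3 ± 41.2 CPM per kb in the Nur77 line at 1 h (118 without replicate 2). In order of mean level over the 6 groups, Ccr2 had all 3 Nur77 groups above all 3 GFP groups and Ccr1 the opposite. Within each line neighbouring Ccr2 groups overlapped. For Ccr1 the GFP groups at 5, 0 and 1 h, in that order, did not overlap, and the Nur77 groups at 5, 1 and 0 h overlapped their neighbours. Without replicate 2 the Nur77 order was 5, 0 and 1 h, and its 5 h libraries were all above those of 1 h. For Cxcr4 the order was GFP 0 h, Nur77 0 h, GFP 1 h, Nur77 1 h, GFP 5 h and Nur77 5 h, with overlap between the second and the third and, through Nur77 line 1 h replicate 2, between the fourth and the fifth. For Cx3cr1 the Nur77 groups stood in the order 0, 1 and 5 h above the GFP groups at 5, 0 and 1 h, and the GFP groups overlapped their neighbours.

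The ligands of these receptors were mostly raised by LPS in both lines, and Ccl2 and Ccl7, ligands of Ccr2, were at lower levels in the Nur77 line at 5 h. Ccl2 was also lower there before LPS, at 8.77 against 22.8 CPM (log2 fold change -1.38, adjusted p = 0.0362), and Ccl7 was called at 0 h only without Nur77 line 1 h replicate 2 (-2.12, adjusted p = 0.000338, against 0.276 with all libraries). Of 12 ligand genes, 9 could be tested. Cxcl12, the main ligand of Cxcr4, had no count in any library, and Ccl8 and Ccl12 were too low to test. At 5 h against 0 h, 7 of 9 were higher and none lower in each line. Of all genes tested, 62.6% were called in the GFP line and 66.7% in the Nur77 line. The ligands' median log2 fold change was 5.60 in the GFP line and 4.29 in the Nur77 line (-0.02 and -0.03 over all genes tested). Ccl5 rose in the GFP line by 9.34, Ccl3 by 5.60 and Ccl9 by 2.34 on the log2 scale, all ligands of Ccr1, and in the Nur77 line they rose by 9.59, 6.06 and 2.57.

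At 5 h, 3 of the 9 ligands were higher and 2 lower in the Nur77 line (median -0.09, against 0.00 over all genes, of which 46.4% were called). Without Nur77 line 1 h replicate 2, 3 were higher and 4 lower, against 51.4% of genes called. The Ccl2 level was 2444 ± 107 CPM without and 709 ± 18.6 CPM with the Nur77 construct (log2 fold change -1.79, adjusted p = 0.00182). Ccl7 had 302 ± 14.9 and 45.4 ± 0.893 CPM (-2.73, adjusted p = 3.79e-06). Ccl6, which binds Ccr1, was higher in the Nur77 line, at 22.0 ± 1.79 against 8.30 ± 0.905 CPM (1.41, adjusted p = 1.34e-09), and so was Cx3cl1, at 5.11 ± 0.520 against 2.64 ± 0.480 CPM (0.93, adjusted p = 0.000613). Summed counts of Cx3cl1 before LPS were 15 in the Nur77 line and 2 in the GFP line. At 1 h Ccl5 (0.79, adjusted p = 0.000438) and Ccl3 (0.48, adjusted p = 0.00218) were higher in the Nur77 line, and Mif was lower (-0.33, adjusted p = 0.0025). The Ccl3 call was lost when only the 1 h libraries were fitted (adjusted p = 0.05). Ccl2 and Ccl7 did not pass at 1 h (-0.53 each, adjusted p = 0.302 and 0.369). Without Nur77 line 1 h replicate 2 they did (-1.74 and -1.92, adjusted p = 9.73e-16 and 6.44e-10). Over all ligands, 2 were higher and 3 lower before LPS (39.9% of all genes called) and 3 were higher and 2 lower at 1 h (51.2%). Without that library 2 were higher and 4 lower before LPS (44.4%) and 3 were higher and 5 lower at 1 h (50.8%). The chemerin gene Rarres2 had 1.96 ± 0.613 CPM in the Nur77 line and 2.98 ± 0.574 CPM in the GFP line at 1 h (-0.68, adjusted p = 0.007), a call lost when only the 1 h libraries were fitted (adjusted p = 0.073).

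**Figure D4:**
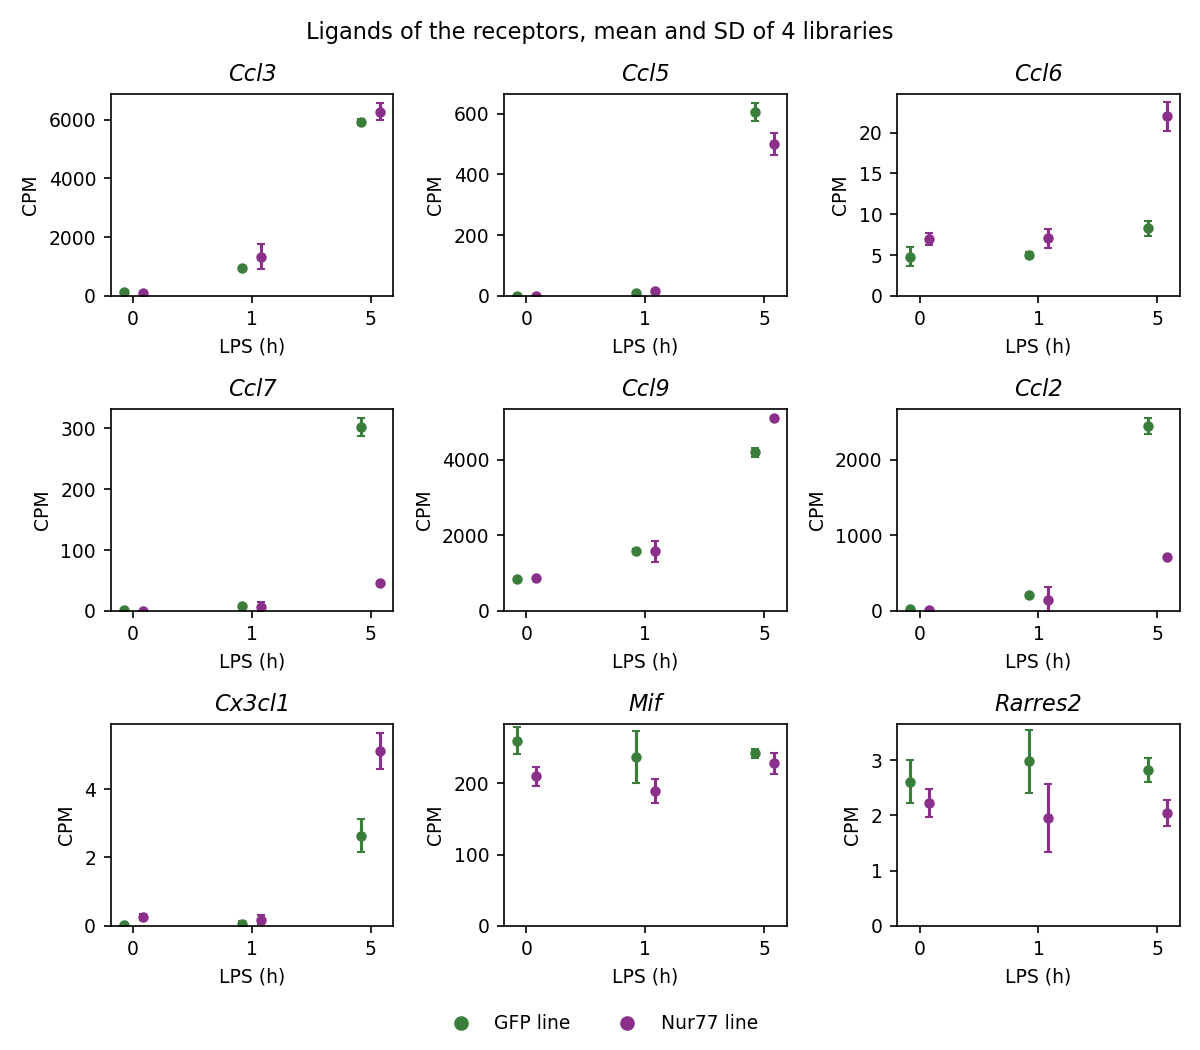
Mean level of the 9 tested ligand genes in CPM at 0, 1 and 5 h of LPS, with SD of 4 libraries as bars (green, GFP line; purple, Nur77 line); each panel has its own linear scale from 0. Ccl2 reaches 2444 CPM (green) and 709 CPM (purple) at 5 h, and the wide bars of the Nur77 line at 1 h include replicate 2.

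Most other chemokine receptors were near or at 0. Of 20 further receptor genes, 6 passed the filter on low counts: Ccr9, Ccr10, Cxcr3, Cxcr5, Xcr1 and Ackr4. At 5 h, 2 of these 6 were lower in the Nur77 line and none higher (median -0.63, against 0.00 over all genes, of which 46.4% were called). Cxcr3, the receptor of the interferon-induced chemokines Cxcl9 and Cxcl10, averaged 3.42 ± 0.103 CPM among GFP libraries against 1.43 ± 0.484 CPM among Nur77 libraries (log2 fold change -1.20, adjusted p = 4.78e-06). Ccr9, the receptor of Ccl25, had 96 counts over the 4 GFP libraries and 36 over the 4 Nur77 libraries at 5 h (-1.19, adjusted p = 0.00444), after at most 3 summed counts per group at 0 and 1 h. Before LPS, where 39.9% of all genes were called, the list's only call was Cxcr5, higher in the Nur77 line (0.59, adjusted p = 0.0303). That call was lost without any 1 of 5 libraries (GFP line 0 h replicates 1, 2 or 3 and Nur77 line 0 h replicates 2 or 3), with values of 0.45 to 0.61. At 1 h, where 51.2% of all genes were called, Ccr10 was lower (-0.81, adjusted p = 0.0234) and Xcr1 higher (1.13, adjusted p = 0.0379). Ccr10 was lost without GFP line 1 h replicate 2 or 4 or Nur77 line 1 h replicate 3 (-0.68 to -0.79). Xcr1 was lost without GFP line 1 h replicate 1 or 2 or Nur77 line 1 h replicate 2, 3 or 4 (0.82 to 1.13). In the GFP line 4 of the 6 were higher and 1 lower at 5 h against 0 h (62.6% of all genes called). In the Nur77 line 3 were higher and 1 lower (66.7% of all genes called).

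Among 24 genes that carry the receptor signal, 23 could be tested, and they moved in both directions between the lines: 5 higher and 5 lower before LPS, 7 higher and 6 lower at 1 h, and 5 higher and 5 lower at 5 h. Their medians were -0.02, 0.06 and 0.05, against 0.02, 0.01 and 0.00 over all genes, of which 39.9%, 51.2% and 46.4% were called. Without Nur77 line 1 h replicate 2, 6 were higher and 5 lower before LPS (44.4% of all genes called). At 1 h 6 were higher and 6 lower (50.8%), and at 5 h 5 were higher and 7 lower (51.4%). Both sets of counts lie near their background. Plcb2, a phospholipase C activated by G protein beta and gamma subunits, was lower in the Nur77 line at every time. Its level before LPS was 7.87 ± 0.381 CPM there, against 38.3 ± 5.89 CPM for the controls (log2 fold change -2.28, adjusted p = 3.01e-14), with -2.27 at 1 h and -2.15 at 5 h. Arrb1, an arrestin that uncouples and internalises activated receptors, was also lower (-0.58, -0.97 and -1.67 at 0, 1 and 5 h). At 5 h it stood at 33.8 ± 3.71 CPM in the Nur77 line and 107 ± 6.90 CPM in the GFP line. Arrb2, another arrestin, was higher at 1 h (0.25, adjusted p = 0.015), but not called without Nur77 line 1 h replicate 2 (0.14, adjusted p = 0.0971). Grk2 and Grk6 were higher before LPS (0.32 and 0.58, adjusted p = 5.44e-06 and 9.73e-06). Gng12, a G protein gamma subunit, was lower (-0.66, -0.54 and -0.48) and Elmo1, which works with Dock2 to activate Rac, was higher (0.44, 0.48 and 0.59).

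The genes whose course over the 6 groups was most like each receptor's were found by Pearson correlation of the 6 group means of log2 CPM, among the 9456 genes that reached 10 CPM in a group. The coefficients describe 6 points and carry no test, and all points share the scaling of the libraries. They compare the shape of a course and not the size of its changes. Cxcr4 was most like Sesn1 (0.999), Elmod3 (0.998) and Fam89b (0.998). Without Nur77 line 1 h replicate 2 these genes ranked 1, 2 and 5. Ccr1 was most like Flrt2 (0.998), Igsf3 (0.997) and Gnas (0.996), which without that library ranked 4, 15 and 6. Igsf3 had 11.8, 10.9 and 25.3 CPM in the GFP line at 0, 1 and 5 h and 0.393, 0.361 and 1.27 CPM in the Nur77 line. Ccr2 was most like Rdx (0.998), Cip2a (0.997) and Rif1 (0.996), which ranked 7, 4 and 5 without it. Ccrl2 was most like Sele (0.995), the endothelial adhesion molecule E-selectin, Klf6 (0.994) and Diablo (0.991), which ranked 1, 12 and 2 without it. Sele had 0.429 CPM at 0 h and 46.6 CPM at 1 h in the GFP line, and 0.0297 and 37.1 CPM in the Nur77 line. Diablo changed far less, with 25.3 and 28.3 CPM in the GFP line and 24.2 and 28.0 CPM in the Nur77 line. Cx3cr1 was most like Zfp729b (0.993), Zfp971 (0.982) and Rnf24 (0.979), but without that library these ranked 9, 26 and 7, with coefficients of 0.962, 0.948 and 0.964.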

How the data were processed

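RNA from 24 libraries was sequenced. CASAVA 1.8.2, HISAT2 2.1.0 and the build mm10 are named in the submitters' processing notes. Which tool counted the reads, whether it used strand, and which annotation release it used is not given in the sources used here. Deposited by the authors were estimated counts, not normalized, for 42361 RefSeq transcripts; every value is a multiple of 0.5 (tolerance 1e-09). Symbols came from RefSeq's gene table (GRCm38.p6) for 42203 transcripts and from GENCODE for 65, and 93 kept their identifier. Each gene was read from its transcript with the highest mean, since isoforms repeat nearly the same counts (for Ccrl2, 0.984 and 0.977 of the highest). Coordinates are those of GRCm38, counted from 1.

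Estimated counts were rounded, and filterByExpr by group left 12198 genes. Library scaling used TMM (trimmed mean of M-values) factors of 0.896 to 1.14. All 24 libraries entered 1 model of 6 group means, fitted by edgeR 4.0.16's robust quasi-likelihood method in R 4.3.3 (18 residual degrees of freedom, common biological coefficient of variation 0.0979). P-values were adjusted by the Benjamini-Hochberg method over all genes tested. A standard error is the size of the log2 fold change over the square root of its F statistic. CPM are counts per 1e+06 after TMM scaling, so the precision of a level follows its counts. The lines were compared at each time, each pair of times within a line, and these changes between the lines. No 2 libraries of a group agreed within sampling noise (lowest chi-square per degree of freedom 2.33). Nothing in the labels says that replicates are separate cultures; p-values then reflect only the spread of these samples, which may be technical.

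As alternatives, the DESeq2 1.42.0 Wald test, its size factors within edgeR, no filter, a 1 CPM filter (4 libraries), a model restricted to the groups compared, a replicate block, the mean over a gene's transcripts and the omission of each library were run. The rule for naming list genes was up to 4 called genes per list and comparison with the smallest adjusted p, and not all of these are given. Named outside it were Ccl2, Arrb1 and Elmo1 before LPS, Arrb2 at 1 h and Prex1 for the difference between the lines. Some calls that arose without Nur77 line 1 h replicate 2 were also named outside it. For each receptor the 3 genes of most like course were named. Nr4a1 and the list genes given without a call were chosen after their values were seen. The receptors, lists and named genes' rule were chosen with earlier results of these data known.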

Additional observations from a re-analysis of the deposited data

Results flagged for a closer look

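The level of Ccr1 set 1 library apart in each of 2 groups, of 30 groups of 4 libraries looked at; chance sets 1 apart in about 1 in 20 groups. In the Nur77 line at 1 h the CPM was 14.5 in replicate 2 and 1.42 to 2.53 in its partners, a gap of 0.915 of the group's range. In the GFP line at 1 h the CPM was 31.0 in replicate 1 and 28.8 to 29.2 in its partners, a gap of 0.84 of a narrow range. In the first of these groups replicate 2 also lay outside its partners for Cxcr4 (0.808 against 1.79 to 2.09 CPM), Ccr2 (10.6 against 6.99 to 8.25 CPM), Ccrl2 (104 against 237 to 328 CPM) and Cx3cr1 (18.4 against 98.3 to 116 CPM).

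The change of Cx3cr1 from 0 to 5 h differed between the lines (edgeR interaction, -1.72 on the log2 scale, adjusted p = 0.0182), with a call in each of the 24 fits that leave out 1 library (-1.77 to -1.64).

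Among the genes of the 3 lists, the LPS change also differed between the lines by the same test. The lists held 6 other receptors, 9 ligands and 23 signalling genes that were tested. In that order 0, 1 and 0 were called from 0 to 1 h (1.13% of all genes). The counts were 1, 1 and 5 from 0 to 5 h (7.88%) and 1, 3 and 2 from 1 to 5 h (6.55%). From 0 to 1 h the call was Ccl3 (0.86), lost when only the groups compared were fitted (adjusted p = 0.0785). From 0 to 5 h the change differed for Cxcr3 (-1.20), Ccl6 (0.83), Arrb1 (-1.09), Plcb3 (-0.33) and Gnb1 (0.31, lost in 1 fit that leaves out 1 library). Nearer the threshold were Prex1 (-0.38, adjusted p = 0.0407) and Grk2 (-0.22, adjusted p = 0.0406, a call lost in 15 of 24 fits that leave out 1 library). From 1 to 5 h the change differed for Cxcr3 (-1.20), Ccl5 (-1.07), Ccl6 (0.93), Ccl7 (-2.20, lost in 7 of 24), Plcb3 (-0.31, lost in 1 of 24) and Arrb1 (-0.70, lost in 9 of 24). The Ccl7, Plcb3 and Arrb1 calls were also lost when only the groups compared were fitted (adjusted p = 0.106, 0.0877 and 0.0724). Without Nur77 line 1 h replicate 2 the calls from 0 to 5 h also held Ccl2 (-0.40), Ccl3 (0.46), Ccl9 (0.24), Pik3r5 (-0.44) and Vav1 (-0.27). Those from 1 to 5 h then also held Ccl9 (0.43), Gnb1 (0.22), Pik3cg (0.31), Pik3r5 (-0.33) and Prex1 (-0.34). Of all genes, 13.7% and 10.2% were then called.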

How the results depend on the processing

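Of 1847 alternative values for the 5 receptors, 1760 kept their direction and side of the threshold, 44 lost a call, 18 gained one and 25 changed sign. Of 3342 for 105 results of list genes and 3 of Nr4a1, 3277 were kept, 62 lost a call, 3 gained one and none changed sign. The difference of the Ccr2 change from 0 to 5 h between the lines (-0.00) was 0.00578 with DESeq2 size factors, 0.00744 with the DESeq2 test, 0.000723 with no filter and 0.0132 in a fit of only the groups compared, and -0.161 to 0.125 when 1 library was left out. Leaving out 1 library gave -0.557 to 1.07 for Ccr1 from 0 to 1 h in the Nur77 line, and -0.138 to 1.48 and -0.899 to 0.710 for the difference between the lines of its change from 0 to 1 h and from 1 to 5 h. It gave -0.0473 to 0.238 and -0.265 to 0.0209 for Ccr2 at 1 and 5 h in the GFP line. For the difference of the change from 1 to 5 h it gave -0.120 to 0.311 for Ccrl2 and -0.299 to 0.0664 for Cxcr4.

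The number of genes called at 1 h in the Nur77 line, 5410, was 3471 in a fit of only the groups compared. The number whose change from 0 to 1 h differed between the lines, 138, was 499 with the DESeq2 test, 47 with only the groups compared, 91 with the replicate block and 74 (without GFP line 0 h replicate 4) to 1597 (without Nur77 line 1 h replicate 1) when 1 library was left out. For 0 to 5 h the number, 961, was 2089 with only the groups compared and 725 to 1681 (without Nur77 line 1 h replicate 2) when 1 library was left out, and for 1 to 5 h, 799, it was 572 to 1496. The cause of these shifts was not tested. Fits of only the groups compared have fewer residual degrees of freedom, and in them the number fell for 0 to 1 h and rose for 0 to 5 h. Whether replicate numbers pair the libraries was not tested. After group means were removed, 8 of 60 same-number pairs correlated above 0.1, and 3 of 24 libraries correlated best with their own number. Over the 15 pairs of groups the mean same-number correlation was -0.094 (GFP line, 0 and 5 h) to 0.11 (both lines, 0 h). Those of other numbers were 0.0313 and -0.0367 in these 2 cases. With the replicate block the Cx3cr1 fall from 1 to 5 h in the Nur77 line lost its call (-0.70, adjusted p = 0.0783), and no other receptor's call changed. The DESeq2 test gave no adjusted p for Ccr1, and Cxcr4 was filtered out of the fit of only the 5 h groups. Depth limits Cxcr4 most, with 2 to 7 counts per Nur77 library at 5 h.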
